A study of Mus musculus with 17 samples.

Results

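RNA from E11 cells grown on a round surface topography (RT, 6 libraries) was compared with RNA from the same cells on flat silicone without topography (NT, 5 libraries), which are 11 of the 17 libraries sequenced. E11 is a mouse podocyte line, and every library came from E11 cells on polydimethylsiloxane (PDMS), a silicone elastomer. In the series the round pattern is the topographic control that is not fractal, and another group on a high fractal pattern traced from healthy glomerular histology (HF, 6 libraries) is used here to show where RT differs from it. The labels give no genotype change, drug or time point, and the size of the round features, the time in culture and what makes a replicate (culture, passage or substrate) are not given in the sources used here. The p-values therefore describe only how these libraries vary, and that variation may be technical.

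Podocytes are the epithelial cells that wrap the glomerular capillaries with interlocking foot processes, joined by the slit diaphragm and anchored to the basement membrane. Their foot processes are held by an actomyosin cytoskeleton, and cultured cells read surface shape through integrin adhesions, actin tension and the transcription factors that respond to it, among them SRF with its MRTF partners and YAP with TAZ. Cultured podocyte lines keep part of this programme and lose part of it.

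The cells carried some podocyte markers and lacked others. Cd2ap, an adaptor of the slit diaphragm, averaged 186 ± 7.21 CPM in NT and 189 ± 5.48 CPM in RT (CPM are counts scaled to a common library total after TMM correction) and Wt1, Synpo and Podxl were expressed at the levels given with the podocyte genes. Tcf21 and Robo2, a podocyte transcription factor and a guidance receptor, had no count in any of the 11 libraries. Of the other cell types checked, the summed markers of parietal epithelium ran from 1588 to 1685 CPM in NT and from 1597 to 1661 CPM in RT, and those of endothelium from 77.5 to 83.6 and from 76.7 to 85.0 CPM. Nearly all of the endothelial sum was Ehd3 (76.4 ± 2.22 CPM in NT and 74.9 ± 2.72 CPM in RT), and Cdh5, Kdr and Tie1 had no count in either group. The immune markers Adgre1, Cd3e, Itgam and Tyrobp had no count in either group.

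Library totals were 14.9 to 18.6 M counts in NT, 15.7 to 24.1 M in RT and 16.2 to 17.8 M in HF. Of 4 exact two-sided permutation tests of depth and composition between RT and NT, the smallest p was for genes detected, 22497 on average in RT and 22043 in NT (p = 0.0455, adjusted p = 0.13). The mitochondrially encoded share of counts averaged 2.31% in NT and 2.17% in RT (exact permutation p = 0.0649, adjusted p = 0.13). Over the 1000 most variable genes the group accounted for 18% of the variation in log2 CPM, and no other assignment of the 11 libraries gave more (exact one-sided permutation p = 0.00216, the smallest that 462 assignments can give).

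Between round and flat surfaces many genes changed a little and few changed a lot. Of 15196 genes tested with edgeR's quasi-likelihood test, 603 passed a Benjamini-Hochberg adjusted p of 0.05, which is 3.97% of those tested. Of these, 384 rose on RT (2.53%) and 219 fell (1.44%). The median size among them was 1.19-fold, and 114 genes (0.75%) changed by at least 1.5-fold, 85 upward and 29 downward. At 2-fold or more, 50 rose and 5 fell. Without NT 3 the test called 365 genes, 244 rises and 121 falls, and the falls numbered 359 without NT 5, 135 without RT 1 and 137 without RT 4. Across all genes tested the median log2 fold change was -0.0021.

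**Figure D1:**
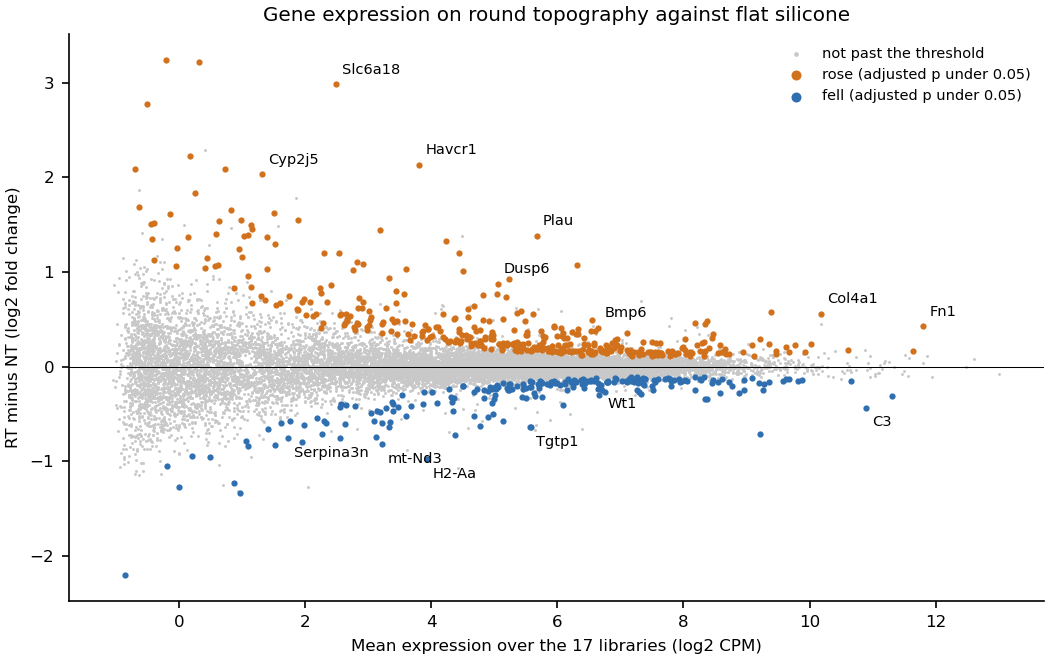
Log2 fold change of RT minus NT against mean expression over the 17 libraries (log2 CPM), 1 point per gene tested. Orange points rose and blue points fell past the adjusted p of 0.05. The largest rises, Slc6a18, Havcr1 and Cyp2j5 among the labelled genes, lie at low to middle expression, and among genes of 7 log2 CPM and over that passed the largest change was 0.71.

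The size of a change that passed depended on expression. Of 2886 genes tested under 1 log2 CPM, 26 rose and 7 fell, and the median size of their log2 fold changes was 1.37. Of 1874 genes at 7 log2 CPM and over, 82 rose and 68 fell, and the median size was 0.16. Protein-coding genes made up 371 of the rises and 188 of the falls, out of 12283 tested. Of 844 pseudogenes tested, 5 rose and 23 fell. Of the 180 named genes that passed, 70 lost the call in at least 1 of the 11 fits that left out 1 library, and none changed sign. For 351 of the 603 genes the ranges of the 2 groups did not overlap, with RT above NT in 244 and below NT in 107. These genes were picked by a small p, which favours ranges that lie apart, so the count adds no support of its own. The share over all genes tested is not reported here.

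Among the largest rises were Havcr1, Slc6a18 and Cyp2j5, which were low in NT. Havcr1 (KIM-1, the kidney injury molecule that tubule cells show after damage) read 4.45, 5.21, 2.63, 3.23 and 3.07 CPM in the NT libraries and ran from 7.96 to 22.2 CPM in RT, with a median of 16.4. Every RT library lay above every NT library, and the gene rose 4.39-fold (log2 fold change 2.13, SE 0.31, adjusted p = 0.00119). Slc6a18, a transporter of neutral amino acids in the proximal tubule, read 0.68, 1.9, 0.966, 0.471 and 0.521 CPM in the NT libraries and ran from 2.62 to 10.8 CPM in RT, with a median of 6.77. Its RT libraries spread widely but stayed above all NT libraries (log2 fold change 2.99, SE 0.56, adjusted p = 0.00718). Cyp2j5, a renal cytochrome P450 that oxidises arachidonic acid, read 0.556, 1.35, 1.07, 0.823 and 0.347 CPM in the NT libraries and ran from 2.05 to 4.88 CPM in RT, with a median of 3.44. It rose 4.1-fold, again without overlap between groups (log2 fold change 2.04, SE 0.29, adjusted p = 8.79e-05).

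Further genes rose from low levels, with varied known roles. Ggt1, the brush border enzyme that cleaves glutathione, was at 1.02 ± 0.256 CPM in NT and 2.63 ± 0.449 CPM in RT (SD, n = 5 and 6; log2 fold change 1.38, SE 0.21, adjusted p = 6.48e-05). Kif12, a kinesin of renal epithelia, read 3.71, 5.48, 4.78, 3 and 5.04 CPM in the NT libraries and ran from 9.75 to 15.7 CPM in RT, with a median of 11.1. No RT library fell below 9.75 CPM and no NT library exceeded 5.48 (log2 fold change 1.45, SE 0.16, adjusted p = 8.85e-06). Cckar (a cholecystokinin receptor), Msln (mesothelin, a surface protein of mesothelium), Clca3a2, Atg9b and Tspan8 rose by log2 1.62, 1.55, 1.5, 1.46 and 1.37, with adjusted p in edgeR from 2.73e-05 to 0.00267 and no overlap of the groups for any of the 5. Acsm2, a kidney acyl-CoA synthetase, was at 4.31 ± 0.791 CPM in NT and 8.8 ± 1.26 CPM in RT, and Prss35, a serine protease homologue, at 4.72 ± 0.681 CPM in NT and 10 ± 1.65 CPM in RT (adjusted p = 5.93e-06 and 4.46e-06). Cd36, the fatty acid scavenger receptor, was chosen after its values were seen, and read 0.433, 0.406, 0.537, 0.412 and 0.984 CPM in the NT libraries and ran from 0.996 to 3.12 CPM in RT, with a median of 2.59 (log2 fold change 2.09, SE 0.33, adjusted p = 0.00018).

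Within the tubule and transport list, 5 of 22 tested members rose and none fell, with a median log2 fold change of 0.08. Among them was Hnf4a, the proximal tubule regulator. It was under 1 CPM in all NT libraries, and its call was lost when any of NT 3, NT 4, NT 5 or RT 6 was left out, with adjusted p up to 0.102 over the alternatives. Among defining tubule genes, Slc34a1, Aqp2, Fxyd2 and Kap had no count in the 11 libraries. In the list of kidney injury and repair genes, 4 of 18 rose and 1 fell. Beside Havcr1 the rises were Clu (clusterin, log2 fold change 0.4, SE 0.08, adjusted p = 0.00215), Gpnmb (2.42 ± 0.398 CPM in NT and 3.92 ± 1.07 CPM in RT) and Plaur, the urokinase receptor (log2 0.24), and the fall was C3, described with complement. Without NT 1, NT 4 or RT 1 Plaur did not pass.

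**Figure D2:**
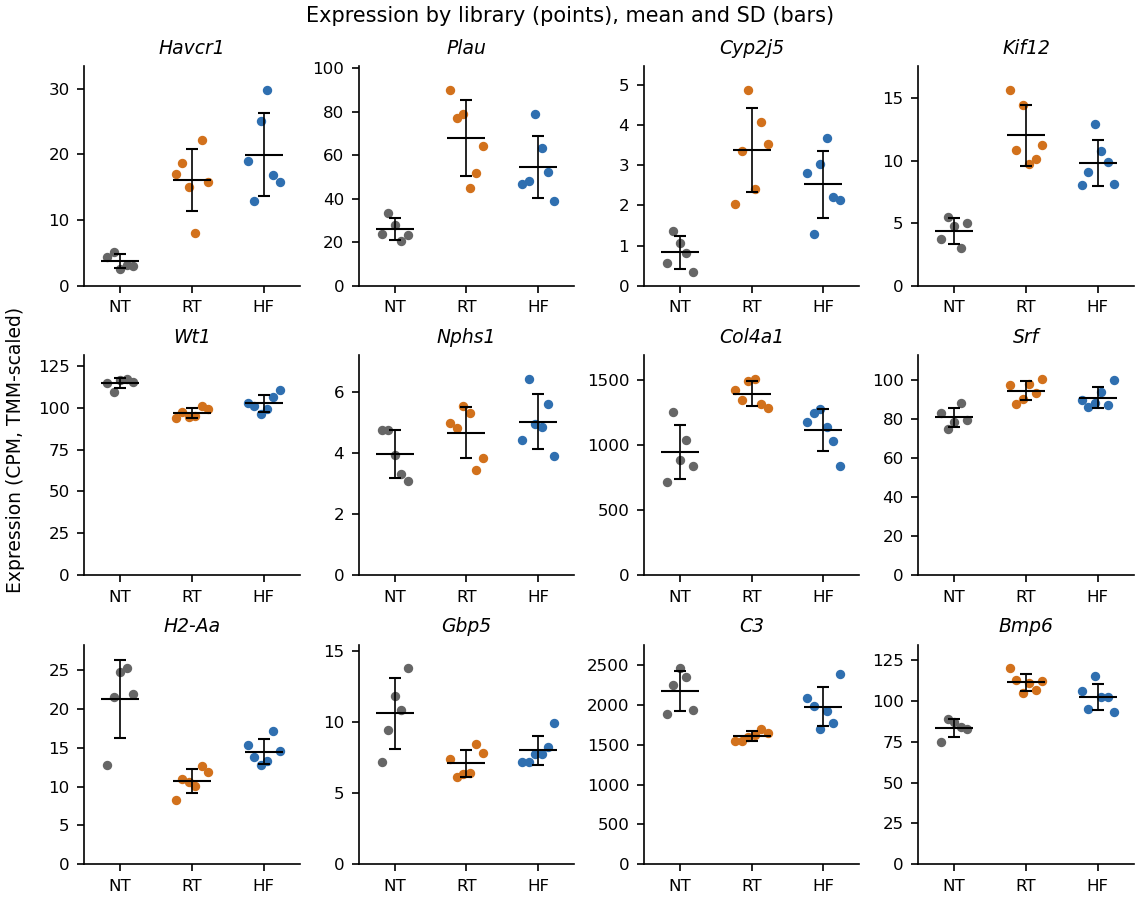
Expression in CPM of 12 genes in each library (points) on flat silicone (NT, grey), round topography (RT, orange) and high fractal topography (HF, blue), with the group mean and SD in black. Havcr1, Plau, Cyp2j5 and Kif12 in RT lie above all NT libraries, Wt1, H2-Aa and C3 lie below them, and the groups overlap for Nphs1, Srf and Gbp5.

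Podocyte genes as a group did not move in one direction. Among 31 slit diaphragm and identity genes tested, 2 rose and 3 fell while 26 missed the threshold, with a median log2 fold change of 0.02, and 4 rose without NT 2. Wt1, the zinc finger factor that specifies podocytes, read 115, 109.7, 117, 117 and 116 CPM in the NT libraries and ran from 93.8 to 101 CPM in RT, with a median of 96.3. All RT libraries lay below all NT libraries, a drop to 0.845 of the flat level (log2 fold change -0.24, SE 0.04, adjusted p = 6.16e-05). Clic5, a chloride channel family protein that links ezrin to actin in foot processes, also fell (23.8 ± 3.11 CPM in NT and 17.2 ± 1.56 CPM in RT, log2 fold change -0.47, SE 0.09, adjusted p = 0.00167). Pdpn (podoplanin) fell by 0.13, and this call was lost in 6 of the 11 fits that left out 1 library.

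Mme (neprilysin, a peptidase on the podocyte surface) read 274, 298, 286, 272 and 234 CPM in the NT libraries and ran from 342 to 419 CPM in RT, with a median of 370.3. It was higher in every RT library (log2 fold change 0.45, SE 0.07, adjusted p = 0.00168). Ezr, the ezrin linker under the apical membrane, rose by log2 0.13 (adjusted p = 0.0463 in edgeR) and lost its call in 9 of the 11 fits that left out 1 library. Nphs1 (nephrin, the main slit diaphragm protein) was low at 3.96 ± 0.788 CPM in NT and 4.66 ± 0.834 CPM in RT and did not pass (log2 fold change 0.23, SE 0.15, adjusted p = 0.491). Synpo (synaptopodin) was at 282 ± 24.7 CPM in NT and 274 ± 5.87 CPM in RT (log2 fold change -0.04, SE 0.04, adjusted p = 0.663), and Podxl (podocalyxin) at 131 ± 8.3 CPM in NT and 143 ± 4.16 CPM in RT (log2 fold change 0.13, SE 0.04, adjusted p = 0.119). Secreted factors chosen after their values were seen were Angpt1 and Vegfd, ligands of endothelial receptors. Angpt1 was at 63.3 ± 4.58 CPM in NT and 50.7 ± 5.12 CPM in RT (log2 fold change -0.32, SE 0.06, adjusted p = 0.00161), and Vegfd at 56.5 ± 1.68 CPM in NT and 45.6 ± 4.05 CPM in RT (log2 fold change -0.31, SE 0.06, adjusted p = 0.00145).

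Of the gene lists with at least 15 tested members, SRF and MRTF targets had the largest share of rises. Of 18 tested, 9 rose and 1 fell, beside 2.53% and 1.44% of all genes, and the median log2 fold change was 0.17. Acta2, the smooth muscle actin, read 253, 287, 202, 266 and 296 CPM in the NT libraries and ran from 323 to 392 CPM in RT, with a median of 364. The RT libraries started above the highest NT library (log2 fold change 0.48, SE 0.1, adjusted p = 0.0121). Srf itself read 83, 75.2, 78.4, 88.5 and 79.8 CPM in the NT libraries and ran from 87.9 to 101 CPM in RT, with a median of 95.6, so that 1 NT library reached into the RT range (log2 fold change 0.23, SE 0.04, adjusted p = 0.00168). Vcl (vinculin, which ties actin to adhesions) was at 284 ± 28.5 CPM in NT and 339 ± 14.5 CPM in RT, with NT 5 lowest at 234 CPM (log2 fold change 0.26, SE 0.05, adjusted p = 0.00334). Fhl1, a LIM protein of muscle, was at 23.9 ± 3.36 CPM in NT and 33.6 ± 3.26 CPM in RT (log2 fold change 0.49, SE 0.09, adjusted p = 0.00265). Csrp1, another LIM protein, rose by 0.19, and Itga5, the fibronectin receptor subunit, by 0.25. Smaller or less stable rises were in Tagln, Cnn2 and Tpm1, for which 9 or 10 of the 11 fits that left out 1 library lost the call, and 67.9% of the exonic bases of Tagln overlap another gene. Fhl2, also a target, fell by 0.15, a call lost in 5 of those fits.

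The CArG box is the site that SRF binds. Among the 250 bases before the start in RefSeq's promoter table (build GRCm38.p6), a CArG box on either strand occurred in 1.62% of the 27025 genes with a window. For the 10281 tested genes with a window the share was 1.41%. Of the 9 SRF targets that rose, 8 had a window and 4 held the box (Srf, Vcl, Cnn2 and Fhl1). The target that fell, Fhl2, also held one, as did Myl9 among 7 that did not pass and had a window. The stretches around the boxes of the 4 rising genes are shown for this reason, with the box in capitals. The Srf stretch lies at chr17:46556185-46556274, minus strand, Vcl at chr14:20929148-20929210, plus strand, Cnn2 at chr10:79988514-79988583, plus strand and Fhl1 at chrX:56779551-56779620, plus strand, all written 5′ to 3′ on the strand of the gene.

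Srf: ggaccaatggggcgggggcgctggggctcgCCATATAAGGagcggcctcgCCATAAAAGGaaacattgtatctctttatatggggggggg
Vcl: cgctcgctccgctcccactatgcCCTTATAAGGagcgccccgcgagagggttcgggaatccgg
Cnn2: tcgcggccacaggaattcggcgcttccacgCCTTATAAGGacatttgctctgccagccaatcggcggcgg
Fhl1: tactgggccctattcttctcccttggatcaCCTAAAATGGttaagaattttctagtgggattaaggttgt

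The Srf stretch holds a pair of boxes separated by a short spacer, and the other stretches hold 1 each. A match is a description of the letters, and binding was not measured.

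Some actin genes rose by small steps. Of 45 tested members of the actin and actomyosin list, 11 rose and 1 fell (median log2 fold change 0.08). The 11 rises include Acta2, Cnn2, Tagln and Tpm1, already counted among the SRF targets, so the counts of these lists overlap. Flnc (filamin C) was at 348 ± 24.6 CPM in NT and 408 ± 10.3 CPM in RT (log2 fold change 0.23, SE 0.04, adjusted p = 0.00016), Actb at 1458 ± 75.4 CPM in NT and 1643 ± 69.6 CPM in RT and Actg1 at 911 ± 44.3 CPM in NT and 1016 ± 29.7 CPM in RT, and Rhob, a small GTPase of early response, at 164 ± 10.2 CPM in NT and 196 ± 11.6 CPM in RT. Without NT 3 Actg1 did not pass, and 51.1% of its windows also occur in other genes. The single fall was a gene model named Myl12b, all of whose exonic bases overlap other genes, so its value cannot be assigned to it alone. The count of rises fell to 5 without NT 3, 7 without RT 1, 6 without RT 4 and 7 without RT 6.

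Of 26 tested YAP and TAZ targets, 6 rose and none fell, with a median of 0.06. F3, tissue factor, was at 64.7 ± 5.46 CPM in NT and 83.3 ± 3.03 CPM in RT (log2 fold change 0.37, SE 0.05, adjusted p = 8.85e-06). Tgfb2 was at 59.3 ± 4.69 CPM in NT and 75.4 ± 4.08 CPM in RT (log2 fold change 0.35, SE 0.05, adjusted p = 3.18e-05) and Ccdc80 rose by 0.25. Ccn1, the secreted matricellular protein often used to read YAP activity, was at 501 ± 107 CPM in NT and 748 ± 78.1 CPM in RT (adjusted p = 0.0381), and Ankrd1 at 306 ± 39.7 CPM in NT and 389.8 ± 15.7 CPM in RT (adjusted p = 0.0381). NT 1 was lowest for both, and each lost its call in 8 of the 11 fits that left out 1 library. Ccn2, a close relative of Ccn1, did not pass (log2 0.43, adjusted p = 0.202). Leaving out NT 3, RT 3, RT 4 or RT 6 reduced the 6 rises to 3 in each case.

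Some adhesion genes passed. Of 35 tested integrin and focal adhesion genes, 6 rose and 1 fell, with a median of 0.02, and 3 rose when NT 3 was left out. Itga5, already counted among the SRF targets, was at 86.2 ± 3.41 CPM in NT and 102 ± 4.2 CPM in RT (log2 fold change 0.25, SE 0.04, adjusted p = 9.43e-05), while Itgb1, its partner, was at 1047 ± 54.9 CPM in NT and 1057 ± 27.9 CPM in RT. Tns2 (tensin 2, an adaptor of podocyte adhesions) fell by 0.16 (adjusted p = 0.00595), and Enah, Src, Bcar1 and Vasp rose by 0.14 to 0.15. Fits without 1 library lost Vasp in 8 cases, Bcar1 in 5 and Src in 2. Trpv4, a stretch-gated channel, was the only one of 19 tested mechanosensitive channel and lamina genes to pass (59.1 ± 4.2 CPM in NT and 78.5 ± 8.27 CPM in RT), and 7 of the 11 fits that left out 1 library lost it, while 2 genes of the list fell without NT 5. Of 22 caveola and membrane curvature genes, Sh3gl1 (endophilin A2) alone passed (log2 fold change 0.17, SE 0.03, adjusted p = 0.0019), with 1 fall added without NT 5 and 2 rises without NT 2, RT 2 or RT 3. Trpv4 and Sh3gl1 make up 5.26% and 4.55% of their lists, near the 3.97% of all genes that passed.

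**Figure D3:**
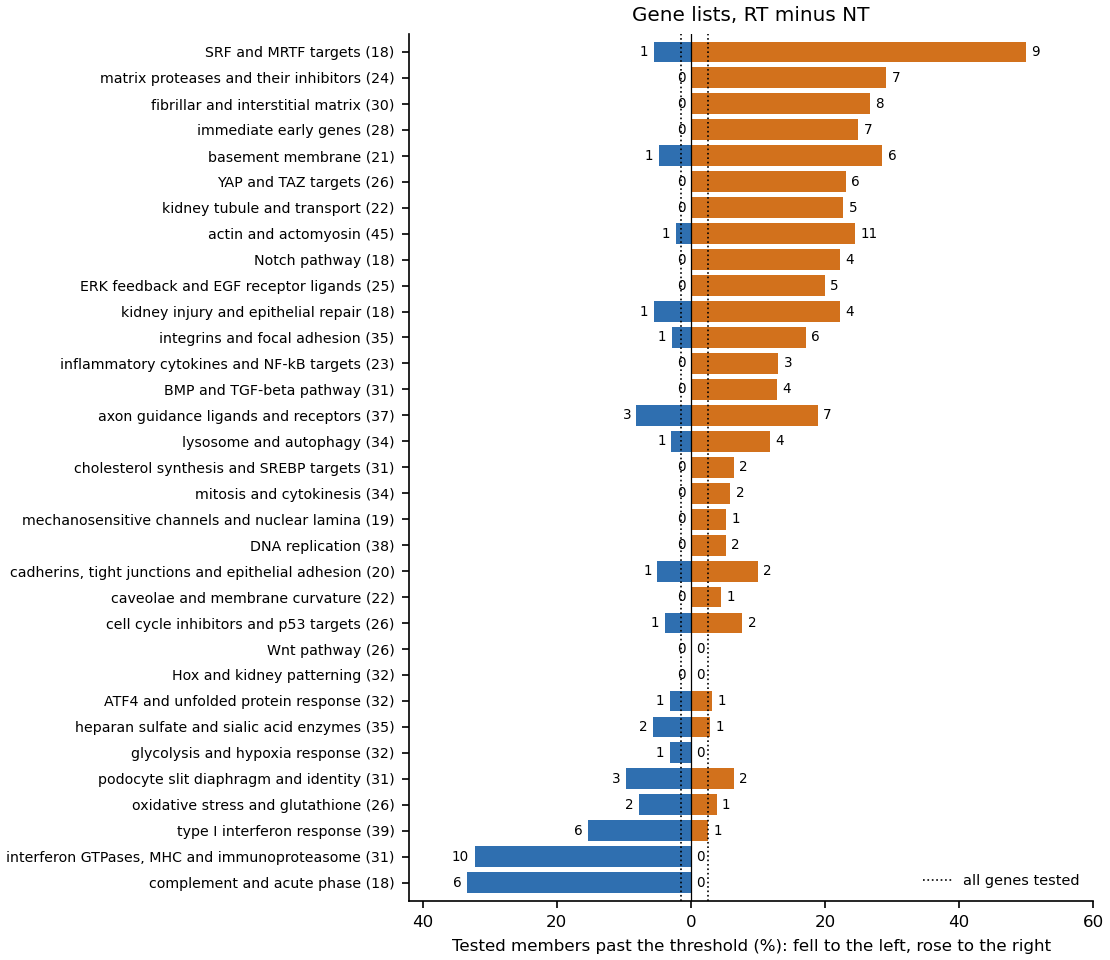
Share of tested members of each gene list with at least 15 tested members that fell (left, blue) or rose (right, orange) past the adjusted p of 0.05, RT minus NT, with the number of members at each bar end and the number tested in brackets. Dotted lines mark the shares over all genes tested, 1.44% fell and 2.53% rose. SRF targets have the longest bar to the right, and complement with the interferon GTPase and MHC list have the longest to the left.

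Some matrix genes rose, in the basement membrane and in the fibrillar matrix. Of 21 tested basement membrane genes, 6 rose and 1 fell, and 20 had a positive fold change (median 0.17). Col4a1, the main collagen IV chain, read 712, 1258, 886, 1038 and 837 CPM in the NT libraries and ran from 1286 to 1508 CPM in RT, with a median of 1382. The NT libraries spread more than the RT libraries (log2 fold change 0.56, SE 0.13, adjusted p = 0.0314), and 7 of the 11 fits that left out 1 library lost the call. Its partner Col4a2 was at 986 ± 184 CPM in NT and 1344 ± 101 CPM in RT and just missed the threshold (adjusted p = 0.0513). Hspg2 (perlecan) was at 921 ± 74.6 CPM in NT and 1089 ± 48.9 CPM in RT (log2 fold change 0.24, SE 0.05, adjusted p = 0.0019) and Agrn (agrin, the main heparan sulfate proteoglycan of the glomerular basement membrane) at 243 ± 15.1 CPM in NT and 275 ± 12.8 CPM in RT (log2 fold change 0.18, SE 0.04, adjusted p = 0.00688). Col4a5 and Lama5, chains of the mature glomerular basement membrane, rose by 0.24 and 0.23, and Col18a1 by 0.16. The call of Col4a5 was lost in 5 of the fits without 1 library, that of Lama5 without NT 3 or NT 5 and that of Col18a1 without RT 4. Lamb2, the laminin β2 chain of the same membrane, fell (699.7 ± 25.8 CPM in NT and 623 ± 8.13 CPM in RT, log2 fold change -0.17, SE 0.03, adjusted p = 0.00182). The 6 rises became 11 without NT 2, and 3 without NT 3, NT 5 or RT 4.

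Of 30 tested fibrillar and interstitial matrix genes, 8 rose and none fell (median 0.18). Fn1 (fibronectin) read 3583, 2847, 2683, 2923 and 2656 CPM in the NT libraries and ran from 3627 to 4131 CPM in RT, with a median of 4028. NT 1 stood above the other NT libraries and just under the lowest RT library (log2 fold change 0.43, SE 0.07, adjusted p = 0.00128). Loxl1, a collagen and elastin crosslinking oxidase, was at 371 ± 17.5 CPM in NT and 423 ± 13.4 CPM in RT (log2 fold change 0.19, SE 0.03, adjusted p = 0.000576). Its relative Loxl2 was at 7.47 ± 1.31 CPM in NT and 11.4 ± 1.63 CPM in RT (log2 fold change 0.62, SE 0.12, adjusted p = 0.00133), and 43.5% of its 100-base windows also occur in another gene. Col5a1, Col8a1, Tnc (tenascin C), Fbn1 (fibrillin 1) and Fbln2 rose by 0.23, 0.25, 0.23, 0.31 and 0.19. Without NT 5 Tnc and Fbn1 did not pass, and 2 other members of the list fell.

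In the list of matrix proteases and their inhibitors 7 of 24 tested genes rose and none fell (median 0.07), with 4 rising without NT 3. Plau, the urokinase that activates plasminogen, read 23.9, 33.6, 28.2, 20.6 and 23.6 CPM in the NT libraries and ran from 45.1 to 90.2 CPM in RT, with a median of 70.9. It had the largest change in the list, 2.61-fold, with no overlap between groups (log2 fold change 1.38, SE 0.22, adjusted p = 0.0022). Mmp14, a membrane metalloprotease that activates Mmp2, was at 188 ± 6.35 CPM in NT and 207 ± 2.95 CPM in RT (log2 fold change 0.14, SE 0.03, adjusted p = 0.00577). Mmp11, Mmp2, Mmp15 and Ctsl (cathepsin L) rose by 0.17, 0.15, 0.31 and 0.16, and Plaur, the receptor described above, by 0.24. Mmp15 lost its call in 7 and Mmp2 in 4 of the fits without 1 library, and Mmp11 without NT 3. Among junction genes, 2 of 20 rose and 1 fell: Cgn (cingulin, 5.45 ± 1.28 CPM in NT and 8.79 ± 1.31 CPM in RT) and Cdh6 (a cadherin of the early nephron) rose, and Cldn1 (claudin 1, of parietal epithelium) fell (197 ± 12.6 CPM in NT and 170.4 ± 10.3 CPM in RT, log2 fold change -0.21, SE 0.05, adjusted p = 0.0157), and 4 fell without NT 5.

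Immediate early genes, transcribed within minutes of growth factor or mechanical signals, rose in part. Of 28 tested, 7 rose and none fell, with a median of 0.19 and 24 positive values, and 4 rose without RT 4. Ier5 read 60.7, 71, 70.5, 71.5 and 74.6 CPM in the NT libraries and ran from 83.3 to 91.9 CPM in RT, with a median of 88.7 (log2 fold change 0.34, SE 0.05, adjusted p = 1.13e-05). Atf3, a stress factor, read 7.79, 10.2, 7.08, 7.94 and 7.7 CPM in the NT libraries and ran from 11.1 to 15.4 CPM in RT, with a median of 12.8. NT 2 was its highest flat library and still lay under the lowest RT library (log2 fold change 0.67, SE 0.11, adjusted p = 0.000196). Jun was at 51.4 ± 6.2 CPM in NT and 69.3 ± 7.6 CPM in RT (log2 fold change 0.43, SE 0.09, adjusted p = 0.00969), and Maff, Btg2, Egr2 and Myc rose by 0.48, 0.51, 0.54 and 0.27. Myc lost its call in 8, Egr2 in 6 and Btg2 in 5 of the 11 fits that left out 1 library. Fos was at 11.8 ± 5.71 CPM in NT and 18.3 ± 7.03 CPM in RT and did not pass (adjusted p = 0.426).

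Genes that ERK signalling switches on as its own brakes also rose in part. Dusp6, the phosphatase that inactivates ERK, read 17.5, 19.4, 21.9, 22.9 and 24.4 CPM in the NT libraries and ran from 34.5 to 41.5 CPM in RT, with a median of 40.1. It rose 1.84-fold with no overlap (log2 fold change 0.88, SE 0.1, adjusted p = 5.88e-05). In its list, 5 of 25 tested genes rose and none fell (median 0.18). Epha2, an ephrin receptor, was at 75 ± 4.58 CPM in NT and 92.5 ± 5.7 CPM in RT (log2 fold change 0.3, SE 0.05, adjusted p = 0.000415), and Spry1, Dusp1 and the EGF receptor ligand Tgfa rose by 0.18, 0.49 and 0.68. Dusp1 and Tgfa each lost the call in 9 of the 11 fits that left out 1 library, with adjusted p up to 0.123 and 0.216, Dusp1 also in limma voom, and Spry1 lost it without NT 3. The 5 rises became 2 without NT 3, and 3 without NT 4, RT 3, RT 4 or RT 6.

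Among the same lists the largest shares of falls were in immune and complement genes. Of 31 tested interferon-inducible GTPases, MHC and immunoproteasome genes, 10 fell and none rose, 29 had a negative fold change and the median was -0.25. H2-Aa, the α chain of an MHC class II molecule, read 12.8, 21.5, 24.7, 25.3 and 22 CPM in the NT libraries and ran from 8.25 to 12.7 CPM in RT, with a median of 10.8. The lowest NT library, NT 1, lay just above the highest RT library, and the gene fell to 0.508 of the flat level (log2 fold change -0.98, SE 0.14, adjusted p = 0.000424). H2-Eb1, a class II β chain, read 14.8, 29, 30.7, 29.1 and 32.8 CPM in the NT libraries and ran from 14.7 to 18.6 CPM in RT, with a median of 15.7. NT 1 again lay far under the other NT libraries and inside the RT range (log2 fold change -0.73, SE 0.16, adjusted p = 0.0146). Cd74, the invariant chain of class II, read 4.88, 13.4, 13.7, 12.6 and 11.9 CPM in the NT libraries and ran from 5.72 to 8.51 CPM in RT, with a median of 6.41. NT 1 was below the lowest RT library, and the call (log2 fold change -0.74, SE 0.18, adjusted p = 0.0306) was lost in 9 of the 11 fits that left out 1 library.

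Among the GTPases, which defend cells against intracellular pathogens, Tgtp1 read 51.5, 59.1, 67.2, 66.3 and 65.7 CPM in the NT libraries and ran from 36.5 to 44.3 CPM in RT, with a median of 39.1. It had the smallest adjusted p of all genes (log2 fold change -0.64, SE 0.06, adjusted p = 1.63e-07), although 83.3% of its windows are shared with another gene, so that its reads and those of its copy Tgtp2 (log2 -0.38) may be mixed. Gbp9 was at 117 ± 14 CPM in NT and 94.7 ± 3.76 CPM in RT (log2 fold change -0.3, SE 0.05, adjusted p = 0.00145), Irgm2 at 52.2 ± 5.86 CPM in NT and 41.5 ± 3.92 CPM in RT (log2 fold change -0.34, SE 0.07, adjusted p = 0.00471) and Gbp5 at 10.6 ± 2.49 CPM in NT and 7.08 ± 0.942 CPM in RT (log2 fold change -0.58, SE 0.13, adjusted p = 0.00536). Gbp7 fell by 0.25, though not past the threshold without NT 3, and Irgm1 fell by 0.16 with its call lost in 7 of the fits without 1 library. The MHC class I genes did not pass: H2-K1 was at 326 ± 57.6 CPM in NT and 315 ± 16.8 CPM in RT (adjusted p = 0.86) and B2m at 521 ± 50.3 CPM in NT and 487 ± 32 CPM in RT (adjusted p = 0.363). Without NT 1 the 10 falls became 22.

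The same direction held for the type I interferon list, with fewer calls. Of 39 tested members, 6 fell, 1 rose and 36 had a negative fold change (median -0.27), and 12 fell without NT 1 against 3 without RT 1 or RT 3. Zbp1, a sensor of Z-form nucleic acid, was at 6.44 ± 1.89 CPM in NT and 3.97 ± 0.469 CPM in RT (log2 fold change -0.71, SE 0.16, adjusted p = 0.00595), with NT 5 highest at 9.49 CPM. Parp14 fell by 0.23 and Irf1 fell by 0.16, the latter lost in 6 of the fits without 1 library. Oas1a and Oas1g, which sense double-stranded RNA, were low at 2.75 ± 1.96 CPM in NT and 1.16 ± 0.166 CPM in RT for Oas1a and 1.37 ± 0.783 CPM in NT and 0.566 ± 0.302 CPM in RT for Oas1g (log2 -1.23 and -1.27), and the call of Oas1a was lost without NT 5, RT 1 or RT 3. That of Oas1g was lost in 6 such fits, with adjusted p up to 0.146, and with NT and RT alone in the fit. Of the windows of Oas1a and Oas1g, 40.9% and 38.2% also occur in the other gene of the pair, so their reads may be mixed. Cxcl10, an interferon-induced chemokine, was higher instead (1.63 ± 0.369 CPM in NT and 2.59 ± 0.269 CPM in RT, adjusted p = 0.0375). The Cxcl10 call was lost in 8 of the 11 fits that left out 1 library, with adjusted p up to 0.118, and with NT and RT alone in the fit. Ifit1 and Isg15, often used as reporters of this response, did not pass (log2 -0.88 and -0.73, adjusted p = 0.177 and 0.246).

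Interferon factors bind a repeated element, searched here as GAAANNGAAA on both strands, and class II promoters carry a Y box, searched as CTGATTGG. In the same 250-base windows the first occurred in 3.46% and the second in 4.43% of the genes. Among the tested genes with a window the shares were 3.1% and 6.54%. Of the 10 members of the GTPase and MHC list that fell, 8 had a window, 6 of them with the repeated element (Gbp5, Gbp7, Irgm1, Irgm2, Tgtp1 and Tgtp2) and the other 2, H2-Aa and H2-Eb1, with the Y box. Of 15 members with a window that did not pass, 5 held the repeated element and 4 the Y box. In the type I list, 2 of 3 falling genes with a window held the repeated element, and so did Cxcl10, which rose. The stretches of 5 falling genes are shown with the matched letters in capitals, Gbp5 at chr3:142496739-142496808, plus strand, Irgm2 at chr11:58214883-58214952, plus strand, Irgm1 at chr11:48871421-48871480, minus strand, H2-Aa at chr17:34287837-34287904, minus strand and H2-Eb1 at chr17:34305775-34305842, plus strand (GRCm38.p6).

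Gbp5: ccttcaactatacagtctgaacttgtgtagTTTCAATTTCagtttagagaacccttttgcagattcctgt
Irgm2: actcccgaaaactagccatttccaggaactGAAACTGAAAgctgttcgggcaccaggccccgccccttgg
Irgm1: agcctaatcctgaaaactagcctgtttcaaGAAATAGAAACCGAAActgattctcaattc
H2-Aa: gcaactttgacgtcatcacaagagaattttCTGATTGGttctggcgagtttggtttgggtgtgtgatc
H2-Eb1: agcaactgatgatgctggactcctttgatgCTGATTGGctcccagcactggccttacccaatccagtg

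In Gbp5 the element lies on the opposite strand, and in Irgm1 a pair of matches overlap in 1 run of capitals.

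Some complement genes were lower on the round surface. Of 18 tested complement and acute phase genes, 6 fell and none rose (median -0.12), and leaving out any 1 library gave 5 to 7 falls. C3, the central component, read 1883, 2244, 2462, 2352 and 1938 CPM in the NT libraries and ran from 1545 to 1701 CPM in RT, with a median of 1614. Every RT library lay below every NT library, and RT held 0.741 of the flat level (log2 fold change -0.43, SE 0.08, adjusted p = 0.00789). C1ra and C1s1, proteases of the first component, were at 164 ± 5.19 CPM in NT and 138 ± 5.94 CPM in RT and 196 ± 7.04 CPM in NT and 165 ± 5.92 CPM in RT, and both lay below NT in every RT library (adjusted p = 0.000271 and 0.00124 in edgeR). Of their windows, 35.9% and 20% are shared with other genes. Osmr, the oncostatin M receptor that raises acute phase genes, read 389.6, 344, 384, 386 and 343 CPM in the NT libraries and ran from 283 to 302 CPM in RT, with a median of 292 (log2 fold change -0.34, SE 0.04, adjusted p = 6.16e-06), and its partner Il6st (gp130) fell by 0.15, a call lost in 6 of the fits without 1 library. Serpina3n, an acute phase protease inhibitor, was at 4.14 ± 0.427 CPM in NT and 2.42 ± 0.477 CPM in RT (log2 fold change -0.76, SE 0.16, adjusted p = 0.00326).

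**Figure D4:**
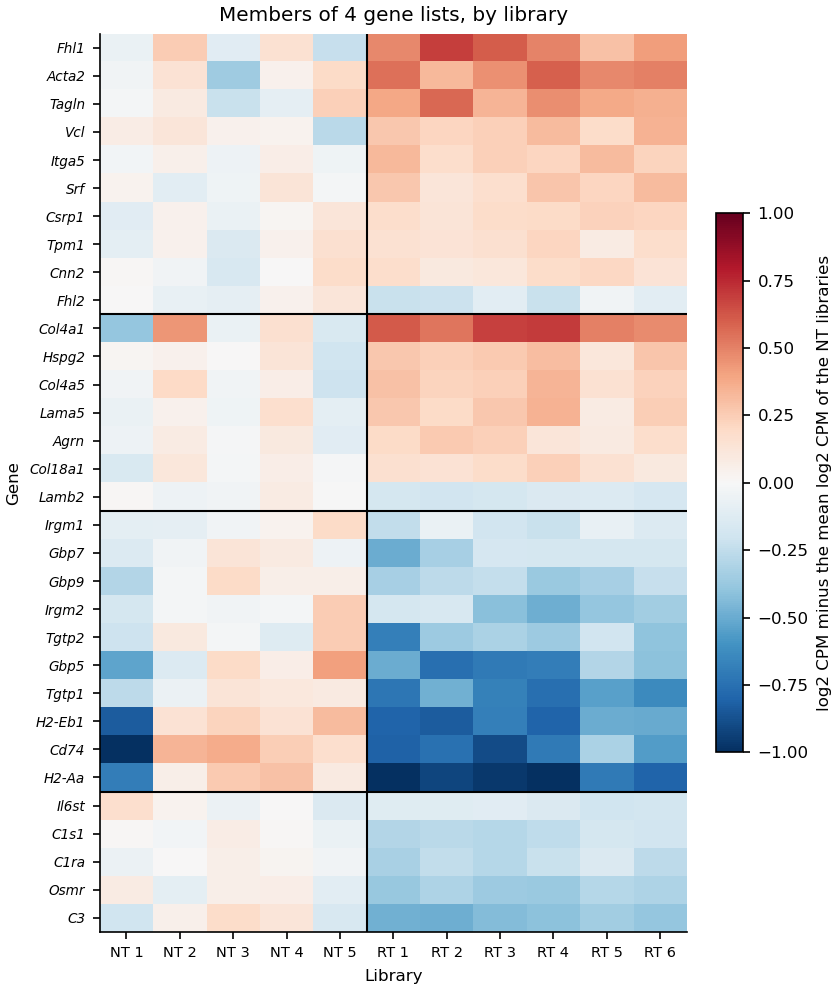
Difference of log2 CPM from the mean of the NT libraries for called members of 4 lists (top to bottom: SRF and MRTF targets, basement membrane, interferon GTPases and MHC, complement and acute phase) in each NT and RT library. The colour scale ends at -1 and 1, and values beyond take the end colour. Osmr and C3 are low in all 6 RT libraries, and NT 1 is low for H2-Aa, H2-Eb1 and Cd74.

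Secreted signals and their receptors changed in several families. Of 31 tested BMP and TGF-β genes, 4 rose and none fell, but without NT 5 the falls numbered 4, as many as the rises. Bmp6, a BMP ligand that also controls iron through hepcidin, read 75, 88.7, 87.4, 84.2 and 82.8 CPM in the NT libraries and ran from 105 to 120.2 CPM in RT, with a median of 112, with no overlap (log2 fold change 0.41, SE 0.05, adjusted p = 4.46e-06). Gdf15, a stress-induced member of the family, was at 82.2 ± 9.84 CPM in NT and 107 ± 4.63 CPM in RT (log2 fold change 0.37, SE 0.06, adjusted p = 0.000405), and Bmp1, a protease that processes procollagen, at 118 ± 3.59 CPM in NT and 133 ± 4.33 CPM in RT. In the Notch list 4 of 18 rose: the ligands Jag1 and Jag2 by 0.15 and 0.56, the target Hes1 by 0.25 and Lfng, which modifies the receptors, by 0.29. Without NT 1 or NT 3 only 2 of them passed, and Jag1 lost its call in 5 of the fits without 1 library. No gene of the Wnt list passed among 26 in edgeR, where 6 had an unadjusted p under 0.05, against 1 rise in DESeq2 and none in limma voom, while 3 fell without NT 5 and 1 rose without RT 5.

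Guidance molecules, first known from axons and also used by podocytes, moved both ways: of 37 tested, 7 rose and 3 fell. Sema7a, a membrane-anchored semaphorin that signals through integrins, read 32.2, 33.6, 28.1, 32.9 and 32.9 CPM in the NT libraries and ran from 44.1 to 52.5 CPM in RT, with a median of 46.1 (log2 fold change 0.56, SE 0.07, adjusted p = 4.46e-06). Plxnd1, a semaphorin receptor, read 69.8, 62.8, 67.3, 64.4 and 67 CPM in the NT libraries and ran from 80.3 to 91.8 CPM in RT, with a median of 83.2 (log2 fold change 0.35, SE 0.04, adjusted p = 4.46e-06). Sema5a was at 46.6 ± 11.4 CPM in NT and 97.7 ± 16.9 CPM in RT (log2 fold change 1.07, SE 0.22, adjusted p = 0.0128), with NT 2 the highest flat library, and Sema6a was at 1.04 ± 0.45 CPM in NT and 2.77 ± 0.636 CPM in RT (log2 fold change 1.4, SE 0.27, adjusted p = 0.00181). Slit2, the ligand of Robo receptors, fell (331 ± 25.5 CPM in NT and 278 ± 8.91 CPM in RT, log2 fold change -0.25, SE 0.04, adjusted p = 0.000964), while Nrp1 fell by 0.18 and Efnb2 fell by 0.14, calls lost in 6 and 7 of the fits without 1 library. The 3 falls became 1 when any of NT 1, NT 3, NT 4, RT 1 or RT 4 was left out.

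Several pathways showed 1 or a few clear genes. In the mitosis list all 34 tested genes had a positive fold change with a median of 0.18, but only Cenpe (19.2 ± 1.21 CPM in NT and 24.2 ± 1.55 CPM in RT, log2 fold change 0.34, SE 0.07, adjusted p = 0.00216) and Nusap1 passed, and Mki67 did not (0.16, adjusted p = 0.332). Nusap1 lost its call in 8 of the fits without 1 library, and 5.88% of the mitosis list passed beside 3.97% of all genes. Of 12 mitochondrially encoded genes 11 had a negative value (median -0.11), and mt-Nd3 and mt-Nd6 passed, against 5 falls without NT 5. mt-Nd6 was at 682 ± 24.6 CPM in NT and 602 ± 24.8 CPM in RT (log2 fold change -0.18, SE 0.04, adjusted p = 0.00215), and 97.6% of the windows of mt-Nd3 also occur in another gene. Fth1, the ferritin heavy chain that stores iron, read 2770.1, 2836, 2904, 2815 and 3012 CPM in the NT libraries and ran from 2148 to 2522 CPM in RT, with a median of 2315 (log2 fold change -0.31, SE 0.04, adjusted p = 1.04e-05). Slc40a1 (ferroportin, the iron exporter), chosen after its values were seen, rose (16.9 ± 1.01 CPM in NT and 24 ± 1.37 CPM in RT, log2 fold change 0.51, SE 0.07, adjusted p = 2.91e-05). Atf5, a stress-response factor, fell (531 ± 37.1 CPM in NT and 439 ± 13.4 CPM in RT, log2 fold change -0.28, SE 0.04, adjusted p = 3.07e-05), and G6pdx, which makes NADPH, fell by 0.18. Perp, a p53 target of cell junctions, rose (63.9 ± 4.23 CPM in NT and 79.1 ± 2.77 CPM in RT, log2 fold change 0.31, SE 0.05, adjusted p = 8.95e-05). Cdsn (corneodesmosin, an adhesion protein of keratinised epithelium) was 1.69-fold higher (log2 fold change 0.76, SE 0.08, adjusted p = 2.76e-07). No gene of the Hox and kidney patterning list passed among 32 in edgeR, where 4 had a negative fold change at an unadjusted p under 0.05, against 1 fall in DESeq2 and 1 in edgeR without NT 4.

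Markers of other cell types moved with some of these groups. The summed mesangial and smooth muscle markers ran from 693 to 794 CPM in NT and from 804 to 878 CPM in RT, through Acta2, which is also an SRF target. Pdgfrb, the other abundant marker of that list, was at 478 ± 16.3 CPM in NT and 457 ± 8.15 CPM in RT and did not pass. Of the immune markers, whose sum ran from 38.6 to 44.0 CPM in NT and from 47.5 to 60.4 in RT, nearly all was Csf1r (39.4 ± 1.94 CPM in NT and 50.8 ± 4.93 CPM in RT, log2 fold change 0.36, SE 0.07, adjusted p = 0.00385), 7 of the 10 lay under 0.1 CPM, and Cd68 was at 1.64 ± 0.251 CPM in NT and 1.5 ± 0.426 CPM in RT. The fibroblast sum ran from 23.1 to 52.6 CPM in NT and from 46.1 to 69.4 in RT, and none of its 5 tested members passed in edgeR, DESeq2 or limma voom (1 at an unadjusted p under 0.05 in edgeR, Col1a1). The part of these markers in the results was not tested. In RNA from whole cultures, fewer cells of a kind and less RNA per cell cannot be told apart.

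A small set of genes separated the round surface from both other surfaces. Of the 603 genes that passed in RT minus NT, 589 had the same sign in HF minus NT. In HF minus NT 354 genes passed, 205 of them among the 603. Both comparisons use the same NT libraries, which favours a like sign. HF minus RT was tested in the same fit, where 32 genes passed (0.211% of those tested), 18 of them among the 603. This comparison shares the RT libraries with RT minus NT, so the values are given side by side. C1ra and C1s1 were at 163 ± 11.8 CPM and 193 ± 17.3 CPM in HF, against the lower RT levels given above (adjusted p = 0.00124 and 0.018 for HF minus RT). The neighbouring protease gene C1rb had the same order, 171 ± 4.54 CPM in NT and 139.8 ± 7.77 CPM in RT with 171 ± 19.1 CPM in HF. Of its windows 42.7% are shared with C1ra, so the reads of C1ra and C1rb may be mixed and their like order is not independent. C1ra, C1s1 and C1rb had their lowest mean in RT among the 3 surfaces, while for C3 the difference between HF and RT did not pass (log2 fold change 0.29, SE 0.08, adjusted p = 0.216).

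Dio2, the deiodinase that makes active thyroid hormone, read 2.04, 2.84, 2.74, 1.71 and 1.51 CPM in the NT libraries and ran from 0.505 to 1.24 CPM in RT, with a median of 0.832, and ran from 1.4 to 3.69 CPM in HF. RT was lower than NT (log2 fold change -1.34, SE 0.26, adjusted p = 0.00142) and lower than HF (log2 fold change 1.64, SE 0.24, adjusted p = 0.000621). Colec12, a scavenger receptor that can start the alternative complement pathway, was at 67.8 ± 5.01 CPM in NT and 59.4 ± 2.61 CPM in RT and 71.1 ± 6.25 CPM in HF (adjusted p = 0.018 for HF minus RT), and its difference from NT was lost in 8 of the 11 fits that left out 1 library. Ndrg1, a stress and hypoxia response gene, was at 654 ± 31.5 CPM in NT and 550.2 ± 25 CPM in RT, with 645 ± 24.4 CPM in HF (log2 fold change 0.23, SE 0.04, adjusted p = 0.000651). Aox3, an aldehyde oxidase, was also lower in RT (adjusted p = 0.0134 against NT and 0.0478 against HF), the former not past the threshold without NT 4.

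Other genes were higher in RT than on both other surfaces. Cbs, the first enzyme of transsulfuration, read 15.8, 19.4, 18.1, 16.9 and 19.3 CPM in the NT libraries and ran from 21.1 to 28.8 CPM in RT, with a median of 25.2. In HF it was at 17.7 ± 1.83 CPM, near the flat level (log2 fold change -0.52, SE 0.08, adjusted p = 0.000621). Kitl (stem cell factor, the ligand of Kit) was at 8.73 ± 0.914 CPM in NT and 12.4 ± 0.645 CPM in RT, with 9.2 ± 1.32 CPM in HF (log2 fold change -0.43, SE 0.09, adjusted p = 0.0252). Acsm2 in HF, at 6.08 ± 0.911 CPM, lay between the other groups (log2 fold change -0.54, SE 0.12, adjusted p = 0.0342). The Notch ligand Jag1 and target Hes1 were at 261 ± 12.4 CPM and 32.4 ± 2.76 CPM in HF, below RT (adjusted p = 0.0252 and 0.042), and Cdh6, Adamtsl4 and Armc10 had the same order. By contrast Havcr1 was at 19.9 ± 6.32 CPM in HF and Plau at 54.8 ± 14.3 CPM, and neither differed from RT past the threshold (adjusted p = 0.826 and 0.77). Wt1 was at 103 ± 5.22 CPM in HF (adjusted p = 0.506 for HF minus RT).

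**Figure D5:**
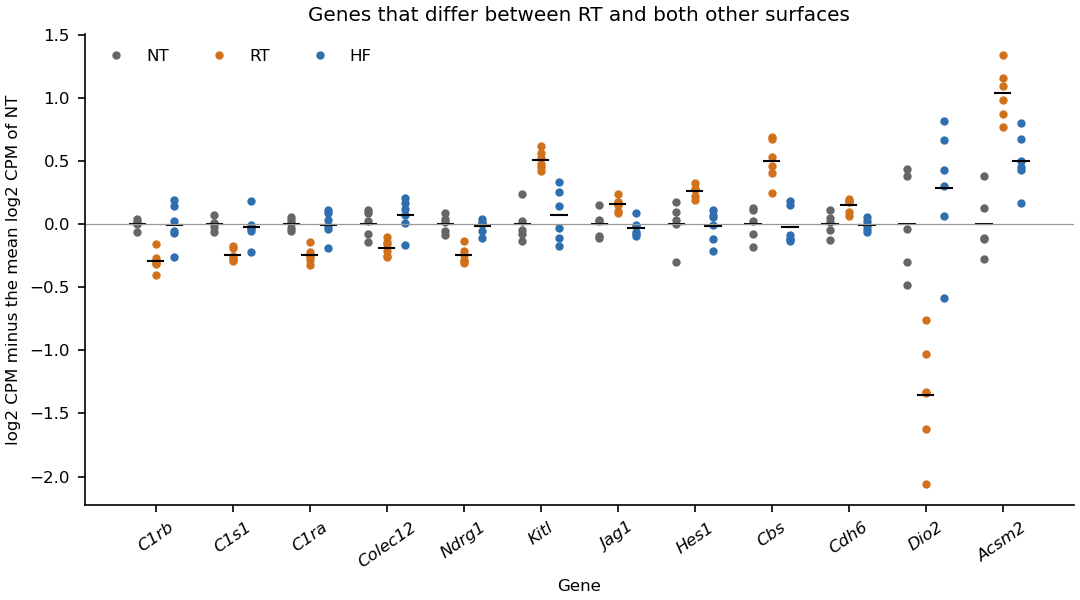
Log2 CPM of 12 genes in each library relative to the mean of the NT libraries, for NT (grey), RT (orange) and HF (blue), with black bars at the group means. All 12 passed in RT minus NT and in HF minus RT. C1ra, Ndrg1 and Dio2 are lowest in RT, and Kitl, Cbs and Acsm2 are highest in RT.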

How the data were processed

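The authors deposited raw counts per gene, whole numbers with no normalization, for 17 libraries, and all 17 columns were used. Per the labels, RNA was selected by poly-T beads, made into non-directional libraries and read as 2 ends of 150 bases. Per the submitters' processing notes the tools were CASAVA, HISAT2 2.0.5 and featureCounts 1.5.0-p3, with builds named GRCm39 and mm39. What each tool did, the annotation release and the strand setting are not given in the sources used here, so reads of overlapping or antisense genes cannot be told apart. GENCODE M21, made on an earlier assembly, gave the symbols, so no gene position is given. Of 56748 identifiers 52073 matched, and the rest held 0.58% of counts.

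Genes were filtered with filterByExpr and tested with edgeR 4.0.16 (R 4.3.3) in 1 quasi-likelihood fit of the 3 groups, after TMM scaling, with two-sided p-values adjusted by Benjamini-Hochberg over all 15196 genes and a threshold of 0.05. CPM are per TMM-scaled total, given as mean ± SD (NT n = 5, RT n = 6, HF n = 6), and an SE is the absolute log2 fold change over the square root of the F statistic. DESeq2 1.42.0, limma 3.58.1 (voom), other scaling and filters, a fit of the 2 groups alone, a replicate block and fits without 1 library were the alternatives.

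The groups compared, the 40 gene lists and the tests were chosen with earlier results of these data known, and lists are described by counts and medians without a list test. Named genes are, among those past the threshold at a mean log2 CPM of 1 or more and with an ordinary name, the 12 largest rises, the 12 largest falls and the 10 smallest p, up to 4 members of each list by p, and Nphs1, Synpo, Wt1 and Podxl. Any further gene was picked with its values in view, and some genes of the rule are not reported here. Shared windows are 100-base windows of a gene's longest transcript that also occur in another gene. Promoter letters came from RefSeq, build GRCm38.p6.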

Additional observations from a re-analysis of the deposited data

Results flagged for a closer look

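In groups of 5 or 6 libraries the highest or lowest library of a named gene was set against the others with Dixon's 95% limit on the gap. Chance passes this limit in about 1 in 20 groups. Each of the 183 named genes was checked in NT and again in RT, and 23 values passed. That count is near the chance share, so any value listed here may be chance. The library NT 1 was far from the other NT libraries for 6 genes: Ankrd1 (238 CPM in NT 1 against 317 to 342), Cd74 (4.88 CPM in NT 1 against 11.9 to 13.7), Cdsn (25.1 CPM in NT 1 against 17.7 to 19.4), Fn1 (3583 CPM in NT 1 against 2656 to 2923), H2-Eb1 (14.8 CPM in NT 1 against 29 to 32.8) and Jun (40.3 CPM in NT 1 against 53.4 to 55.3). For Ankrd1, Cd74, H2-Eb1 and Jun it was lowest, and for Cdsn and Fn1 highest. NT 2 was highest for Atf3 (10.2 CPM in NT 2 against 7.08 to 7.94), Sema5a (66.6 CPM in NT 2 against 38.8 to 45.1) and Tgfa (5.28 CPM in NT 2 against 2.66 to 3.13). NT 3 stood apart for mt-Nd6 (725 CPM in NT 3 against 661 to 676), Plaur (33.8 CPM in NT 3 against 30.6 to 31.3) and Sema7a (28.1 CPM in NT 3 against 32.2 to 33.6). NT 5 stood apart for Cd36 (0.984 CPM in NT 5 against 0.406 to 0.537), Efnb2 (306 CPM in NT 5 against 335 to 341) and Vcl (234 CPM in NT 5 against 289 to 307).

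Among RT libraries the values were Nfkb1 (205 CPM in RT 1 against 177 to 188), Jag2 (6.32 CPM in RT 2 against 4.45 to 4.88), Mmp15 (31.8 CPM in RT 4 against 25.1 to 27.1), Unc5b (435 CPM in RT 4 against 391 to 405), Hspg2 (996 CPM in RT 5 against 1085 to 1137), Sesn1 (157 CPM in RT 5 against 143 to 147), Col8a1 (223 CPM in RT 6 against 185 to 192) and Plxnd1 (91.8 CPM in RT 6 against 80.3 to 84.2). RT 5 was the low library for Hspg2 and the high one for Sesn1.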

How the results depend on the processing

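The 603 changed genes numbered 583 to 835 with other tools, scalings and filters, 510 with NT and RT alone in the fit and 504 with libraries numbered 1 to 5, all within 1.5 times. Fits without 1 library gave 365 to 806, and for changes of at least 1.5-fold 89 to 121 beside 114. With the replicate block, 995 genes passed, 595 of them among the 603. The labels do not say that equal numbers pair the libraries, so the block was run as an alternative. After removal of group means, same-numbered NT and RT libraries correlated at 0.00666 to 0.193, with 2 of 5 above 0.1. Of the 5 NT libraries, 3 correlated best with the RT library of their own number, so whether equal numbers form pairs was not settled. On the second principal component, with 16.1% of the variance, NT 1 and RT 1 lay at 18.9 and 13.9 and the others from -7.81 to 2.36, a hint from the data and not from the labels that equal numbers may share something. Under the block the type I interferon falls numbered 18 beside 6, the basement membrane rises 13 beside 6 and the immediate early rises 13 beside 7. The separation of the groups ran from 18% to 19.5% without 1 library and from 16.5% to 20.1% with 2000 or 500 genes. Leaving out NT 1 and NT 5 together, chosen after seeing the data, gave 642 genes, of which 385 were among the 603. Of the 180 named genes that passed, 97 passed under every alternative run, which were 19 and the added one. Under 1 log2 CPM 1.14% of genes passed, against 8% at 7 log2 CPM and over, and whether depth set this share was not tested.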

Other observations

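Some smaller groups held further genes that changed between round and flat surfaces, beside 2.53% of all genes that rose and 1.44% that fell. Of 23 tested cytokine and NF-κB target genes 3 rose and none fell: Ccl7, a monocyte chemokine (13.2 ± 1.42 CPM in NT and 17.5 ± 2.45 CPM in RT, log2 fold change 0.42, SE 0.09, adjusted p = 0.00321), Lif, a cytokine that signals through gp130 (6.36 ± 0.672 CPM in NT and 8.91 ± 0.807 CPM in RT), and Nfkb1 (168 ± 6.9 CPM in NT and 187 ± 9.99 CPM in RT). Without NT 4 Lif did not pass, and without NT 3 or RT 1 Nfkb1 did not. Of 35 tested heparan sulfate and sialic acid enzymes 1 rose and 2 fell, among them Hs6st2, a 6-O-sulfotransferase of heparan sulfate (965 ± 56.1 CPM in NT and 871 ± 19.6 CPM in RT, log2 fold change -0.15, SE 0.04, adjusted p = 0.0125). In that list 3 rose without NT 2 and none without NT 3, and 1 rise in 35 is near the share of rises over all genes. Of 34 tested lysosome and autophagy genes 4 rose and 1 fell, and the rises numbered 2 without NT 1, NT 4, RT 2 or RT 4. In the cholesterol list 2 of 31 tested genes rose and none fell, 6.45% beside the 3.97% of all genes that passed. Acaca was among them, and 8 of the 11 fits that left out 1 library lost its call. Of the windows of Acaca 42.8% also occur in another gene.

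Genes outside the lists were chosen after their values were seen. Ntrk3, the receptor of neurotrophin 3, was at 18.6 ± 2.25 CPM in NT and 26.8 ± 2.4 CPM in RT (log2 fold change 0.53, SE 0.07, adjusted p = 1.47e-05). Folh1, a folate hydrolase, was at 13.3 ± 0.93 CPM in NT and 9.59 ± 1.78 CPM in RT (log2 fold change -0.47, SE 0.1, adjusted p = 0.00443), and Sp100, a nuclear body protein, at 33.2 ± 3.76 CPM in NT and 26.3 ± 1.85 CPM in RT (log2 fold change -0.33, SE 0.07, adjusted p = 0.00182). Mrm1, a mitochondrial rRNA methyltransferase, and Slc43a2, an amino acid transporter, were among the smallest p and rose by log2 0.61 and 0.56. Sel1l3 was nearly silent on flat silicone, at 0.144 ± 0.0706 CPM in NT and 1.39 ± 0.445 CPM in RT (log2 fold change 3.22, SE 0.41, adjusted p = 5.93e-06).

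The RT libraries were uneven for Ndufa12, a subunit of respiratory complex I. It read 15.8, 17.5, 15.8, 15.8 and 17.8 CPM in the NT libraries and ran from 16.3 to 48.9 CPM in RT, with a median of 35.8, and was at 16.4 ± 1.33 CPM in HF. Its call (adjusted p = 0.0192 in edgeR) was lost without NT 3, with NT and RT alone in the fit and in limma voom. Xist was also uneven. It read 8.03, 13.7, 10.2, 11 and 9.38 CPM in the NT libraries and ran from 14 to 52 CPM in RT, with a median of 18.4 (log2 fold change 1.33, SE 0.35, adjusted p = 0.047), and 8 of the 11 fits that left out 1 library lost its call.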
